A study of Mus musculus with 8 samples.

Results

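The nuclear genes for subunits of respiratory complexes II to V were taken from a table of FPKM values (fragments per unit of gene length and of library depth) for 55681 mouse genes. All protein-coding entries with a symbol of the Sdha to Sdhd, Uqcr, Cyc1, Cox4 to Cox8 or Atp5 families were kept, so the choice used names and no values. This gave 49 entries under 48 symbols, of which 4 belonged to complex II, 9 to complex III, 18 to complex IV and 18 to complex V. A second entry under the name Atp5o (ENSMUSG00000116933) held no read in any library. The libraries were made from RNA of whole small intestines at E15.5, on a C57BL6J background, with 1 embryo for each of the 8. The 4 controls were Slmap fl/fl, and the 4 libraries labelled cKO were Slmap fl/fl with Dermo-Cre (also spelled Derom-Cre in the labels), so both groups carried floxed alleles. The Cre driver is named for Dermo1 (now Twist2), active in mesenchyme, so the deletion is directed at the mesenchyme of a tissue that also holds epithelium, nerve and blood cells. The study asked what lies behind a shorter gut when Slmap, which encodes a membrane protein of the STRIPAK phosphatase complex, is deleted. Litter, sex and batch are not given, so p-values cover only the embryo-to-embryo spread, whatever its source.

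Complex II oxidises succinate and passes the electrons to ubiquinone, complex III moves them from ubiquinol to cytochrome c, and complex IV hands them to oxygen. Complex V, the ATP synthase, makes ATP from the proton gradient that complexes I, III and IV build. Complex II is encoded wholly in the nucleus, while complexes III, IV and V each join nuclear subunits to subunits read from mitochondrial DNA. Several complex IV subunits exist as isoforms of muscle, testis, lung or most tissues.

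Slmap itself was no lower in libraries labelled cKO, with 23.6, 23.3, 25.4 and 24.2 FPKM in controls 1 to 4 and 25.5, 23.5, 26.5 and 26.3 FPKM in cKO 1 to 4, and the groups overlapped. It differed by 0.07 ± 0.07 on the log2 scale (SE, limma adjusted p = 0.570). These reads cover all exons and the sources used here do not name the floxed exon, so directions below follow the labels. Libraries held 15663837 to 17806397 reads, recovered from the FPKM values. Controls 3 and 4 stood apart, at 33.3 and 24.3 on the first principal component against -27.5 to 9.24 in the other 6 libraries, and cKO 2 lay at 6.16 on the second, nearer the controls (12.4 to 15.8) than the other 3 cKO libraries (-24.6 to -15.0). Among the 44 subunit genes tested, cKO 2 was the lowest of its group for 23 (52.3%), against 34.4% of all genes tested. Controls 3 and 4 were both above controls 1 and 2 for 12 of the 44 (27.3%) and both below for 20 (45.5%), against 30.8% and 42.3% of all genes. Summed over 6 markers, intestinal epithelium lay at 770.4 to 1045 FPKM in the controls and 842 to 1153 FPKM in the cKO libraries. The 5 smooth muscle markers summed to 1126 to 1628 and 1017 to 1386 FPKM, the 5 mesenchyme markers to 324 to 584 and 275 to 468 FPKM, the 4 enteric neuron markers to 40.0 to 69.0 and 42.3 to 70.8 FPKM, the 4 erythroid markers to 296 to 861 and 435 to 900.3 FPKM, and the 5 pancreas and liver markers to 56.1 to 75.4 and 27.0 to 102 FPKM. The 4 macrophage markers summed to 24.1 to 28.1 FPKM in the controls and 16.5 to 25.2 FPKM in the cKO libraries. Sums follow the most abundant markers. By log2 fold change, 6 of 6 epithelial markers lay above 0, while 4 of 5 smooth muscle and 3 of 4 tested mesenchyme markers lay below. Des (smooth muscle) was lower and Pdgfra (mesenchyme) higher without overlap between groups, beside 5.75% of all genes lower and 9.61% higher. The part of these markers in the results below was not tested.

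Most of the subunit genes were abundant, and most lay slightly lower in the cKO libraries, but none passed the test. A mean of at least 1 FPKM was reached by 44 of the 49 entries, all of complexes II and III, 14 of 18 in complex IV and 17 of 18 in complex V. Their median level was 89.5 FPKM against 7.14 FPKM over all 14220 genes tested, and 40 of the 44 lay at 20 FPKM or more. Summed over the entries, they took 1.80% to 1.88% of all FPKM in the controls and 1.61% to 1.78% in the cKO libraries. The lowest share was that of cKO 2, and the shares of the groups were apart only by the step from 1.80% to 1.78%. The summed FPKM themselves overlapped, at 4971 to 5592 FPKM in the controls and 4681 to 5418 FPKM in the cKO libraries. In these whole-tissue libraries, fewer cells of a type and less RNA per cell cannot be told apart. The highest member was Atp5a1, the catalytic partner alpha subunit of ATP synthase, at 467 FPKM over the 8 libraries, and the lowest of those tested was Cox7a1 at 3.81 FPKM.

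With limma and Benjamini-Hochberg adjustment over all genes, 0 of the 44 members were called higher and 0 lower at an adjusted p under 0.05, beside 0% of all genes higher and 0.0141% lower (2 of 14220). limma-voom on the recovered reads also called 0 members. At an unadjusted p under 0.05, 2 members were higher and 11 lower, where 12.6% of all genes were higher and 9.87% lower. The 4 values of one group lay wholly outside those of the other for 0 members in the higher direction and 8 members (18.2%) in the lower direction, beside 9.61% and 5.75% of all genes. The log2 fold change was below 0 for 34 of the 44 members with a median of -0.15, whereas 7147 of all 14220 genes lay below 0 with a median of 0.00. The count below 0 was 34 with median-ratio scaling, 35 with quantile normalization and 36 with scaling by summed reads, and 26 after a correction for GC content and gene length.

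Calls depended on how the libraries that stood apart were treated. With array quality weights, which gave cKO 2 a weight of 0.329, limma called 2 members higher (Uqcrc2 and Atp5pb) and 8 lower (Uqcr10, Uqcr11, Uqcrq, Cox4i2, Cox5b, Cox6b2, Atp5e and Atp5k), beside 8.30% of all genes higher and 7.24% lower. Without cKO 2 it called 1 higher (Atp5pb) and 5 lower (Uqcr11, Uqcrq, Cox6b2, Atp5e and Atp5k), beside 5.57% and 4.15% of all genes. Without controls 3 and 4 it called 0 members, and 17 of the 44 members lay lower without overlap and 2 higher, beside 20.8% and 19.1% of all genes, against 5.75% and 9.61% with all 8 libraries.

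**Figure D1:**
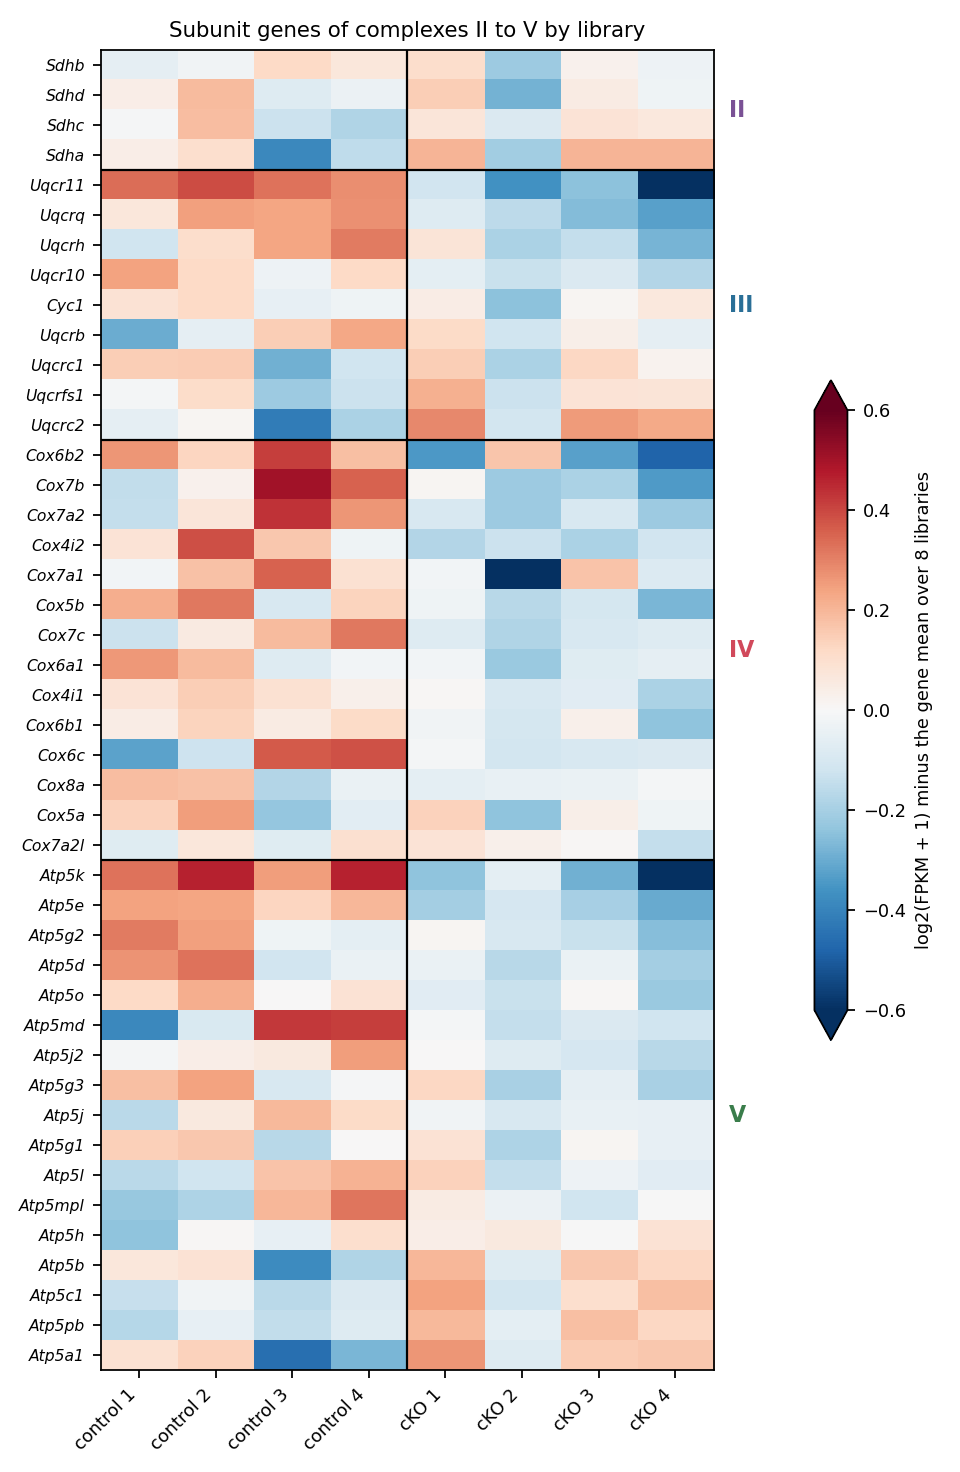
Each row is a subunit gene, by complex and ordered by its difference between groups, and each column a library. The colour gives log2(FPKM + 1) minus the gene's mean over the 8 libraries, and values past either end of the scale take the end colour. Uqcr11, Uqcrq, Atp5k and Atp5e are red in 4 of 4 controls and blue in 4 of 4 cKO libraries, while Atp5a1, Atp5b, Sdha and Uqcrc2 are bluest in control 3.

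The 4 complex II genes did not share a direction, with 2 below and 2 above 0, a median log2 fold change of 0.00, and no gene without overlap between groups. Sdha (ENSMUSG00000021577, chromosome 13, 74470373 to 74498399), the flavoprotein that oxidises succinate, lay at 86.8, 90.7, 64.3 and 75.8 FPKM in controls 1 to 4. In cKO 1 to 4 it lay at 97.4, 72.9, 97.5 and 97.6 FPKM. Control 3 was lowest, cKO 2 stood below the other cKO libraries, and the groups overlapped. Sdha differed by 0.20 ± 0.14 on the log2 scale (SE, limma adjusted p = 0.429), and it was 0.31 without cKO 2 and 0.03 without controls 3 and 4. Sdhb, which carries the iron-sulfur clusters, lay at 83.4 ± 4.65 FPKM and 80.2 ± 7.49 FPKM (SD, n = 4 each), a difference of -0.06 with a 95% interval of -0.27 to 0.15. Sdhc and Sdhd form the membrane anchor that binds ubiquinone. Sdhc lay at 53.7, 61.6, 49.3 and 47.6 FPKM in the controls and 56.9, 50.8, 57.2 and 56.4 FPKM in the cKO libraries. Sdhd lay at 178, 198, 164 and 169 FPKM in the controls and 192, 142, 179.5 and 170.3 FPKM in the cKO libraries. Both overlapped between groups, and Sdhd had its lowest value in cKO 2. The intervals of the difference ran from -0.16 to 0.29 for Sdhc and from -0.32 to 0.20 for Sdhd, on the log2 scale.

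In complex III, 3 of the 5 small accessory subunits lay lower in the cKO libraries without overlap between groups, and 0 of the 4 larger subunits did. The 3 made up 33.3% of the genes of the complex, beside 5.75% of all genes. Of its 9 genes, 6 lay below 0 with a median of -0.06, and none passed the test. The 3 without overlap were Uqcr11, Uqcrq and Uqcr10, which encode small accessory subunits of the membrane part of the complex. Uqcr11 (ENSMUSG00000020163, chromosome 10, 80238831 to 80242664) lay at 99.3, 103, 98.4 and 95.3 FPKM in controls 1 to 4 and at 72.4, 60.7, 66.0 and 51.1 FPKM in cKO 1 to 4. The controls were tightly grouped, cKO 4 was lowest, and the nearest values of the groups were 95.3 and 72.4 FPKM. Uqcr11 differed by -0.67 ± 0.11 in log2 (limma SE, adjusted p = 0.0687; exact permutation p = 0.0286, the smallest that 70 assignments allow). Left out in turn, the libraries gave log2 fold changes of -0.74 to -0.57, with a limma adjusted p of 0.0253 when cKO 2 was left out. After the correction for GC content and length it was -0.39, and limma's adjusted p ranged from 0.0165 to 0.350 over the 20 alternatives.

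Uqcrq (ENSMUSG00000044894, chromosome 11, 53318749 to 53321658) lay at 57.8, 65.5, 65.2 and 66.9 FPKM in the controls and 52.2, 49.3, 45.8 and 43.8 FPKM in the cKO libraries. Control 1 was the lowest control and still lay above all 4 cKO values. The difference was -0.41 ± 0.09 on the log2 scale (SE, limma adjusted p = 0.0758), and correcting for GC content and length left it at -0.39. Uqcr10 (chromosome 11, 4651973 to 4654342) lay at 186, 171, 154 and 171 FPKM in the controls and 151, 143, 148 and 139 FPKM in the cKO libraries. Here the groups were close, 154 FPKM in control 3 against 151 FPKM in cKO 1, and the difference of -0.23 ± 0.08 in log2 (SE, limma adjusted p = 0.165) became -0.06 once corrected. Uqcrh, the hinge subunit that sits beside cytochrome c1, lay at 123, 144, 158 and 166 FPKM in the controls and 141, 117, 121 and 110.2 FPKM in the cKO libraries, and cKO 1 lay above control 1. Uqcrb, another accessory subunit near the ubiquinone site, lay at 101 ± 16.1 FPKM and 99.5 ± 7.37 FPKM (SD, n = 4 each), and its log2 fold change of -0.01 turned to 0.17 without controls 3 and 4.

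The 4 larger subunits of complex III had a median of 0.09, with 3 above 0. Cyc1 and Uqcrfs1 encode cytochrome c1 and the Rieske iron-sulfur protein, which carry the electrons, and Uqcrc1 and Uqcrc2 encode the core proteins on the matrix side. Uqcrc2 (ENSMUSG00000030884, chromosome 7, 120234399 to 120258747) lay at 107, 112, 82.8 and 97.3 FPKM in the controls and 136, 103, 133 and 130.4 FPKM in the cKO libraries. Of the cKO libraries, cKO 2 alone lay within the range of the controls. Its difference, 0.33 ± 0.13 in log2 (SE, limma adjusted p = 0.177), was the highest of the 44 members, and it was 0.42 without cKO 2 and 0.19 without controls 3 and 4. Its adjusted p with limma ranged from 0.0412 to 0.490 over the alternatives. Uqcrfs1 lay at 152 ± 15.2 and 166 ± 16.1 FPKM, Uqcrc1 at 79.3 ± 11.8 and 82.0 ± 8.55 FPKM, and Cyc1 at 119 ± 7.12 and 114 ± 10.9 FPKM (SD, n = 4 each, controls first). Their 95% intervals all held 0. The direction of Uqcrc1 turned to -0.01 with quantile normalization, to -0.02 with scaling by summed reads and to -0.12 without controls 3 and 4. Per library, the mean log2(FPKM + 1) of the 4 larger subunits minus that of the 5 accessory ones was 0.20, 0.14, -0.23 and -0.15 in controls 1 to 4 and 0.39, 0.23, 0.46 and 0.59 in cKO 1 to 4. The groups did not overlap, and controls 3 and 4 were the lowest. This contrast was not planned beforehand and reuses the values of the genes above, so it only restates them.

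**Figure D2:**
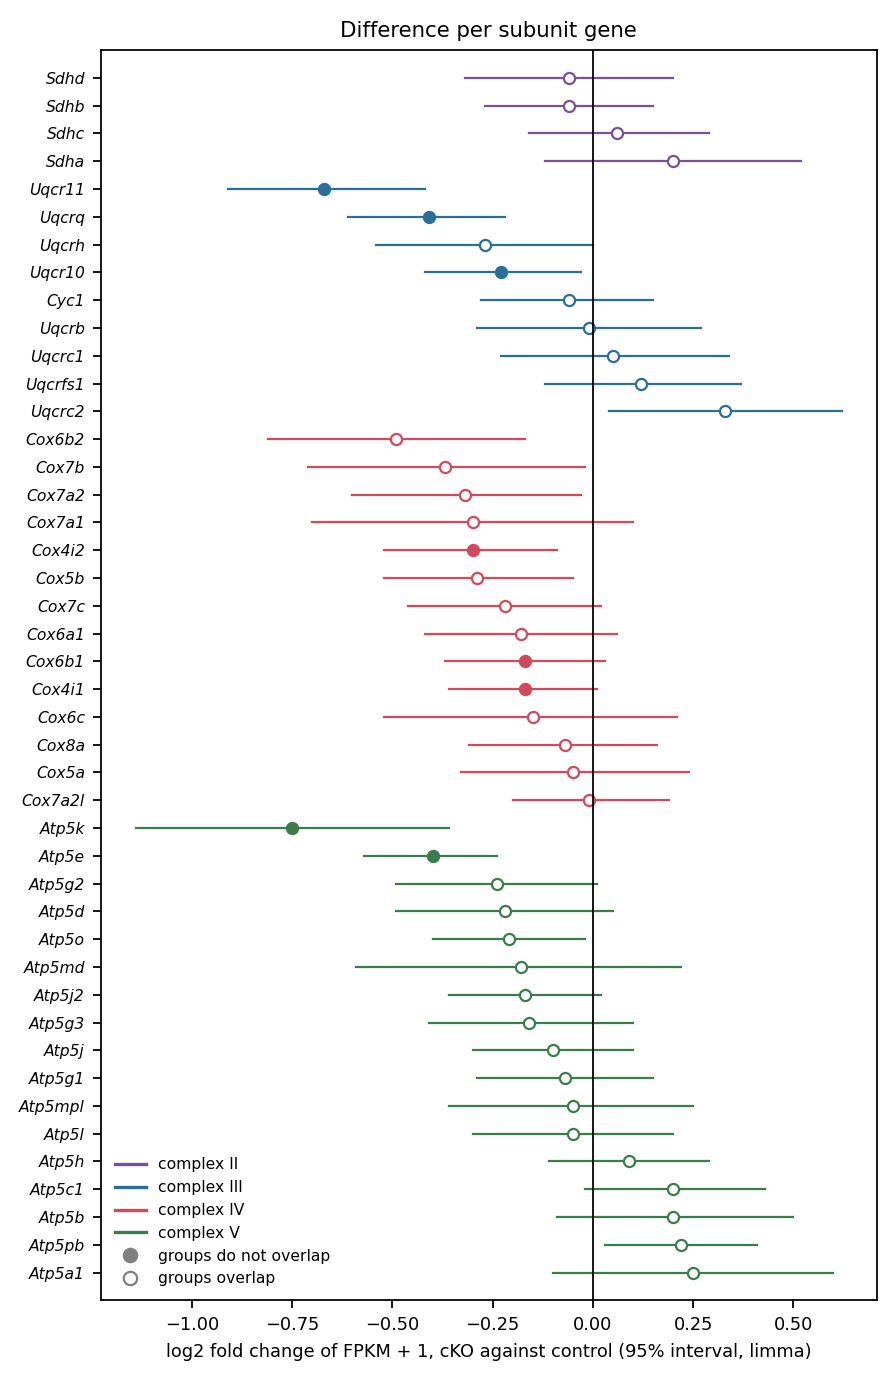
The log2 fold change of FPKM + 1 is drawn for each of the 44 subunit genes tested, with its 95% interval from limma, and filled points mark genes whose groups did not overlap. All 14 complex IV genes lie below 0, from -0.49 for Cox6b2 to -0.01 for Cox7a2l, and Uqcrc2 at 0.33 and Atp5a1 at 0.25 lie farthest to the right.

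All 14 tested nuclear genes of complex IV lay below 0, with a median log2 fold change of -0.20, but no single gene passed the test. All 14 stayed below 0 with median-ratio, quantile and summed-read scaling, and 10 of 14 did after the correction for GC content and length, with a median of -0.14. Below 0 were 12 of 14 without control 2, and 13 of 14 without control 4, cKO 2, cKO 4, or controls 3 and 4. Per library, the mean deviation of the 14 genes from their own means was 0.03, 0.14, 0.14 and 0.13 in controls 1 to 4 and -0.04, -0.16, -0.07 and -0.17 in cKO 1 to 4, on the log2 scale. The groups did not overlap, with control 1 nearest to cKO 1. The same mean over 38 complex I genes did not overlap either, at 0.02 to 0.16 in controls and -0.15 to -0.01 in cKO libraries. The genes without overlap were Cox4i1, Cox4i2 and Cox6b1, 21.4% of the 14 tested, beside 5.75% of all genes. Cox4i1 (ENSMUSG00000031818, chromosome 8, 121394961 to 121400946), the common form of the subunit through which ATP inhibits the enzyme, lay at 270.5, 283, 272 and 261 FPKM in the controls and 257, 239, 244 and 224 FPKM in the cKO libraries. The groups were separated by the small step from 261 to 257 FPKM. In log2 they differed by -0.17 ± 0.08 (SE, limma adjusted p = 0.255), which the GC and length correction brought to 0.03. Cox6b1, which helps hold the dimer of the enzyme together, lay at 199, 212, 199.7 and 209 FPKM in the controls and 190.3, 179.6, 197 and 163 FPKM in the cKO libraries. Again the groups nearly touched, at 199 and 197 FPKM (difference in log2 of -0.17 ± 0.09 SE, limma adjusted p = 0.289).

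Among the other widely expressed subunits, Cox5b, a zinc-binding subunit on the matrix side, lay at 56.6, 60.7, 45.4 and 53.4 FPKM in the controls and 47.7, 43.1, 45.1 and 40.0 FPKM in the cKO libraries. Control 3 lay among the cKO values. Cox5b differed by -0.29 ± 0.10 (SE, limma adjusted p = 0.160), and -0.41 without controls 3 and 4. Cox7b and Cox7a2, small subunits that span the membrane, were high in controls 3 and 4. Cox7b lay at 103, 116, 162 and 146 FPKM in the controls and 115, 97.9, 99.9 and 89.8 FPKM in the cKO libraries, and Cox7a2 at 121, 141, 181 and 161 FPKM and at 125, 115, 125 and 115 FPKM. Control 1 lay within the range of the cKO libraries for both genes. In log2, Cox7b differed by -0.37 ± 0.15 (SE, limma adjusted p = 0.201) and -0.12 without controls 3 and 4, and Cox7a2 by -0.32 ± 0.13 (SE, limma adjusted p = 0.185) and -0.13. Cox6c, another small membrane subunit, had the widest split of the controls in complex IV, at 37.9, 43.6, 61.8 and 62.3 FPKM, with the cKO libraries between 44.0 and 47.2 FPKM, and its log2 fold change of -0.15 became 0.15 without controls 3 and 4. Cox7c lay at 167 ± 21.9 and 143 ± 4.60 FPKM, Cox6a1 at 336 ± 37.3 and 295 ± 18.5 FPKM, Cox8a at 288 ± 34.9 and 272 ± 4.04 FPKM, and Cox5a at 49.5 ± 7.34 and 47.7 ± 5.26 FPKM (SD, n = 4 each, controls first). For these 4 genes the intervals held 0 and the SD of the cKO group was the smaller.

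Isoform choice in complex IV was that of most tissues in both groups. Cox4i2, the isoform best known from lung and induced at low oxygen, made up 1.63% to 2.33% of the summed FPKM of the Cox4 genes. It lay at 5.29, 6.75, 5.64 and 4.82 FPKM in the controls and 4.26, 4.43, 4.21 and 4.48 FPKM in the cKO libraries, on 53 to 85 reads, without overlap (log2 fold change -0.30 ± 0.09 SE, limma adjusted p = 0.118). Its share of the Cox4 genes did overlap between groups, at 2.02% ± 0.224 and 1.78% ± 0.145 (SD, n = 4 each). Cox6b2, the testis isoform of Cox6b1, lay at 5.75, 5.14, 6.49 and 5.37 FPKM in the controls and 3.43, 5.30, 3.48 and 3.03 FPKM in the cKO libraries, and 3 of 4 cKO libraries lay below every control. The value of cKO 2, 5.30 FPKM, was within the controls, and Cox6b2 differed in log2 by -0.49 ± 0.14 (SE, limma adjusted p = 0.10) with it and -0.63 without it (limma adjusted p = 0.0178, in a range of 0.0167 to 0.418 over the alternatives). Cox7a1, the heart and skeletal muscle isoform, made up 1.68% to 3.35% of the summed Cox7a1 and Cox7a2 FPKM and rested on 19 to 46 reads a library. It lay at 3.67, 4.33, 5.03 and 4.03 FPKM in the controls and 3.67, 1.97, 4.32 and 3.46 FPKM in the cKO libraries, lowest in cKO 2. Cox7a2l lay at 111 ± 6.91 and 110.2 ± 7.29 FPKM with an interval of the difference from -0.20 to 0.19.

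The 5 entries that did not reach 1 FPKM were muscle or testis isoforms and the second Atp5o entry. Cox6a2, the striated muscle partner of Cox6a1, had 2 reads in control 4, 4 reads in cKO 4 and 0 in the other 6 libraries. Cox8b, also of striated muscle, had 1 read in control 3, 2 in control 4 and 0 elsewhere. Cox7b2 and Cox8c, the testis isoforms of Cox7b and Cox8a, were at 0 reads in 8 of 8 libraries, which allows up to 3 reads in each by counting error alone. The 8 striated muscle markers summed to 6.60 to 7.94 FPKM in the controls and 4.70 to 5.79 FPKM in the cKO libraries without overlap, and 5 of the 8 had a mean under 1 FPKM. The 4 germ cell markers all had means under 1 FPKM, with sums of 0.327 to 0.894 and 0.0920 to 0.580 FPKM, and Tnp1 was at 0 in every library.

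In complex V the genes of the catalytic head lay above 0 and those of the small membrane subunits below 0 in the comparison of all 8 libraries. Of 17 genes tested, 12 lay below 0 with a median of -0.10, and Atp5k and Atp5e did so without overlap between groups. These 2 were 11.8% of the 17, beside 5.75% of all genes. Atp5k (ENSMUSG00000050856, chromosome 5, 108581110 to 108582314), subunit e of the membrane part, where ATP synthase forms dimers, lay at 46.6, 51.2, 44.1 and 51.2 FPKM in controls 1 to 4 and at 31.1, 35.4, 30.1 and 19.2 FPKM in cKO 1 to 4. The lowest control was 44.1 and the highest cKO library 35.4 FPKM, and cKO 4 was lowest. Among all members its difference of -0.75 ± 0.17 in log2 (SE, limma adjusted p = 0.0782) was the lowest. It was -0.85 to -0.57 with 1 library left out in turn and -0.54 after the GC and length correction, and limma's adjusted p ranged from 0.0214 to 0.378 over the alternatives. Atp5e (ENSMUSG00000016252, chromosome 2, 174302865 to 174305898), the epsilon subunit at the foot of the rotating central stalk, lay at 73.6, 73.2, 67.9 and 71.3 FPKM in the controls and 53.8, 57.7, 53.9 and 50.2 FPKM in the cKO libraries. Both groups were tight, with a gap from 67.9 to 57.7 FPKM. Atp5e differed by -0.40 ± 0.07 in log2 (SE, limma adjusted p = 0.0758), by -0.39 once corrected for GC content and length, and by -0.44 without controls 3 and 4.

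The 2 genes of the catalytic head, Atp5a1 and Atp5b, encode the alpha and beta subunits that bind the nucleotides. Atp5a1 (ENSMUSG00000025428, chromosome 18, 77861429 to 77870569) lay at 490.4, 507, 336 and 381 FPKM in the controls and 554, 436, 513 and 515 FPKM in the cKO libraries. Controls 3 and 4 were the lowest of the 8 libraries and cKO 2 lay below controls 1 and 2, so the groups overlapped. Atp5b lay at 402, 408, 295 and 339 FPKM in the controls and 441, 364, 429 and 418 FPKM in the cKO libraries, with the same libraries low. In log2 the differences were 0.25 ± 0.15 for Atp5a1 (SE, limma adjusted p = 0.367) and 0.20 ± 0.13 for Atp5b (SE, limma adjusted p = 0.388), and without controls 3 and 4 they were 0.01 and 0.02. Atp5c1, the gamma subunit that turns inside the head, lay at 189, 205, 186 and 196 FPKM in the controls and 246, 193, 223 and 236 FPKM in the cKO libraries, and cKO 2 alone lay among the controls. Atp5c1 differed by 0.20 ± 0.10 in log2 (SE, limma adjusted p = 0.258). Atp5d, the delta subunit of the same stalk, lay at 131 ± 19.8 and 111 ± 6.92 FPKM (SD, n = 4 each), a log2 fold change of -0.22 that was -0.01 after the GC and length correction.

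The peripheral stalk, which holds the head still, was divided, with 2 genes above and 2 below 0. Atp5pb, subunit b, lay at 82.1, 89.5, 83.4 and 87.6 FPKM in the controls and 106, 88.7, 105 and 101 FPKM in the cKO libraries, and cKO 2 again lay within the controls. Its difference in log2 was 0.22 ± 0.08 (SE, limma adjusted p = 0.173) and 0.28 without cKO 2 (limma adjusted p = 0.0442, in a range of 0.0341 to 0.908 over the alternatives). A processed pseudogene of it, Atp5pb-ps, lay at 7.38 to 11.6 FPKM, so reads could be split between the copies. Atp5o, the subunit that ties the stalk to the head, lay at 64.2, 68.8, 59.1 and 62.9 FPKM in the controls and 56.3, 53.7, 59.3 and 50.5 FPKM in the cKO libraries. Its values met at 59.1 FPKM in control 3 and 59.3 FPKM in cKO 3 (log2 fold change -0.21 ± 0.08 SE, limma adjusted p = 0.180). Atp5h and Atp5j, the other genes of the stalk, had log2 fold changes of 0.09 and -0.10 with intervals that held 0.

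The 3 genes of subunit c, the ring that proton flow turns, encode the same mature protein and contribute to its RNA unequally. Atp5g3 gave 60.8% ± 0.959 of their summed FPKM in the controls and 61.6% ± 1.18 in the cKO libraries, Atp5g2 30.6% ± 1.20 and 29.2% ± 1.40, and Atp5g1 8.61% ± 0.335 and 9.23% ± 0.517 (SD, n = 4 each). The shares overlapped between groups for all 3. Their log2 fold changes were -0.16, -0.24 and -0.07, and that of Atp5g2 was 0.04 after the GC and length correction. The other 4 small membrane subunits besides Atp5k lay below 0 as well. Atp5j2 lay at 55.2 ± 4.63 and 48.9 ± 2.42 FPKM (SD, n = 4 each). Atp5md lay at 37.7, 46.5, 66.9 and 66.5 FPKM in the controls and 44.8 to 49.1 FPKM in the cKO libraries, and its log2 fold change of -0.18 was 0.15 without controls 3 and 4. Atp5mpl and Atp5l, at -0.05 each, were likewise higher in controls 3 and 4, and turned to 0.18 and 0.11 without them. Atpif1, which encodes the inhibitor that blocks ATP hydrolysis and is not a subunit, lay at 67.8 ± 7.07 and 74.9 ± 3.26 FPKM (log2 fold change 0.15 ± 0.09 SE, limma adjusted p = 0.379).

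**Figure D3:**
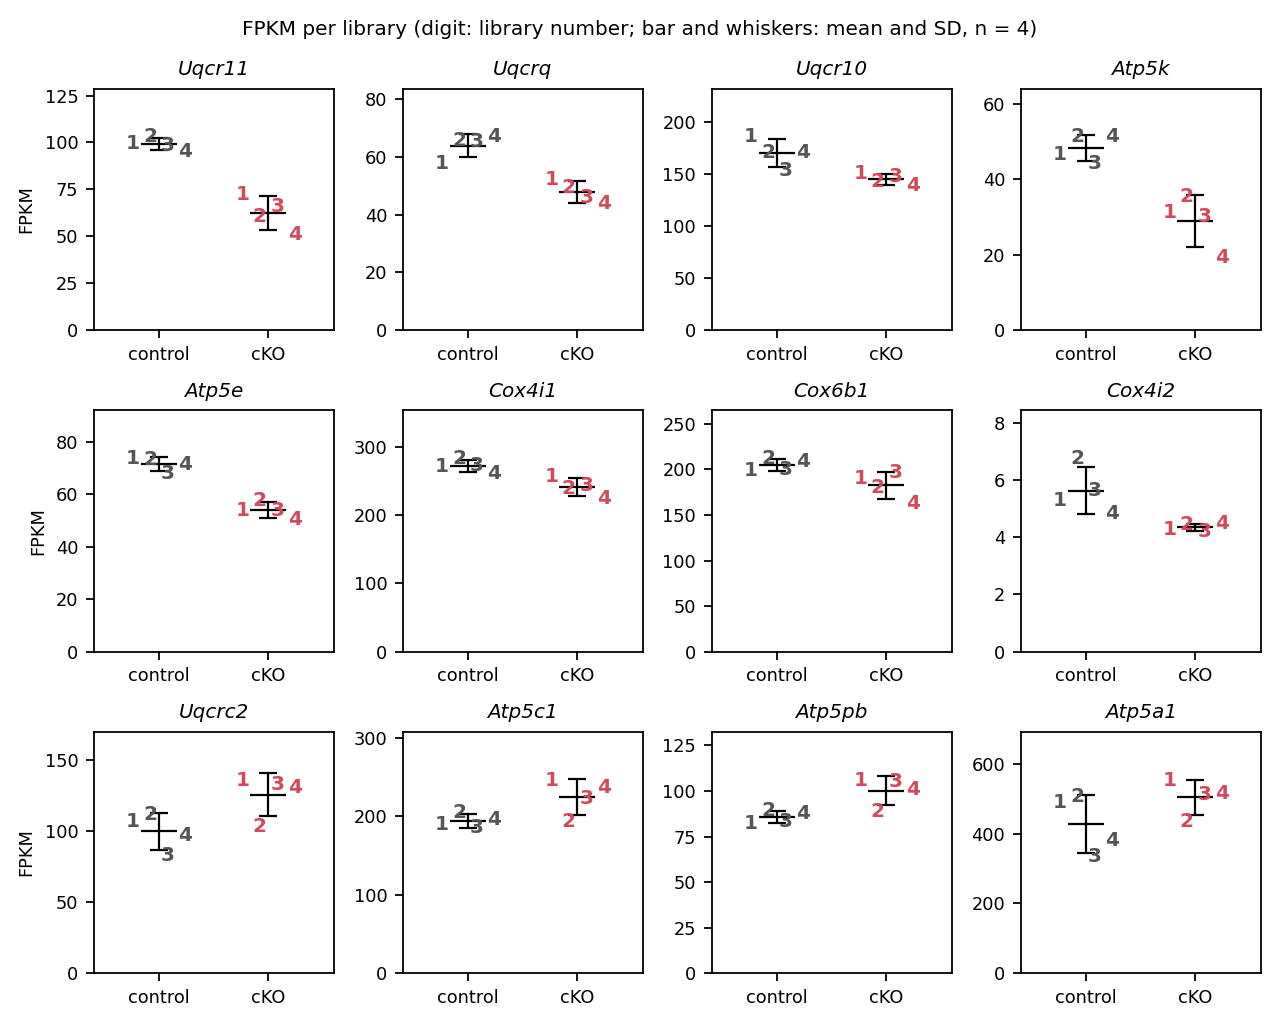
FPKM per library for 12 subunit genes, where each digit is the library's number, the long bar the group mean and the whiskers the SD (n = 4). The upper 8 genes did not overlap between groups. In the lower row cKO 2 sits at the level of the controls for Uqcrc2, Atp5c1 and Atp5pb, and controls 3 and 4 are low for Atp5a1.

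Across the complexes, the log2 fold change rose with coding length, and also with gene length. The 27 members with coding sequences of up to 150 codons all had log2 fold changes below 0, with a median of -0.18. Of the 17 longer ones 7 lay below 0, with a median of 0.06. The limit of 150 codons was chosen after the values were seen. After the correction for GC content and length, 5 of the 27 lay above 0 (Cox6a1, Cox8a, Cox7a2l, Atp5mpl and Atp5g2), and without controls 3 and 4 there were 6 (Uqcrb, Atp5mpl, Atp5md, Cox6c, Atp5l and Atp5j), with a median of -0.19 in both. With 1 library left out in turn, 23 to 27 lay below 0. Over all protein-coding genes tested, 65.8% of the 897 genes up to that limit lay below 0 with a median of -0.10, against 47.5% of 11351 longer genes with a median of 0.01, so short genes in general lay lower, by less. Of the short members, 6 of 27 (22.2%) lay lower without overlap, beside 105 of the 897 short genes (11.7%). Spearman's rho between coding length and the log2 fold change was 0.66 over the 44 members and 0.14 over 12248 protein-coding genes. After the correction for GC content and gene length it was 0.68 and 0.14. With gene length in place of coding length, rho was 0.56 over the members and 0.24 over all protein-coding genes tested. After the correction these were 0.22 and 0.00. Which length, or which complex, orders the members was not tested. The points share the same 8 libraries and are not independent, so these values are descriptions. The correlation with GC content was -0.33 over the members and -0.62 over all protein-coding genes. Coding length also ordered differences within the control group. Controls 3 and 4 minus controls 1 and 2 had a median of 0.10 over the short members and -0.17 over the longer ones, with a rho of -0.59 against coding length, where all protein-coding genes gave -0.08. The controls that differed from the others thus had the short members higher and the long ones lower, which is the reverse of the order in the cKO libraries. Both comparisons use the same controls, so they are not independent. Without controls 3 and 4, the median log2 fold change was -0.19 over the short members and 0.01 over the longer ones.

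**Figure D4:**
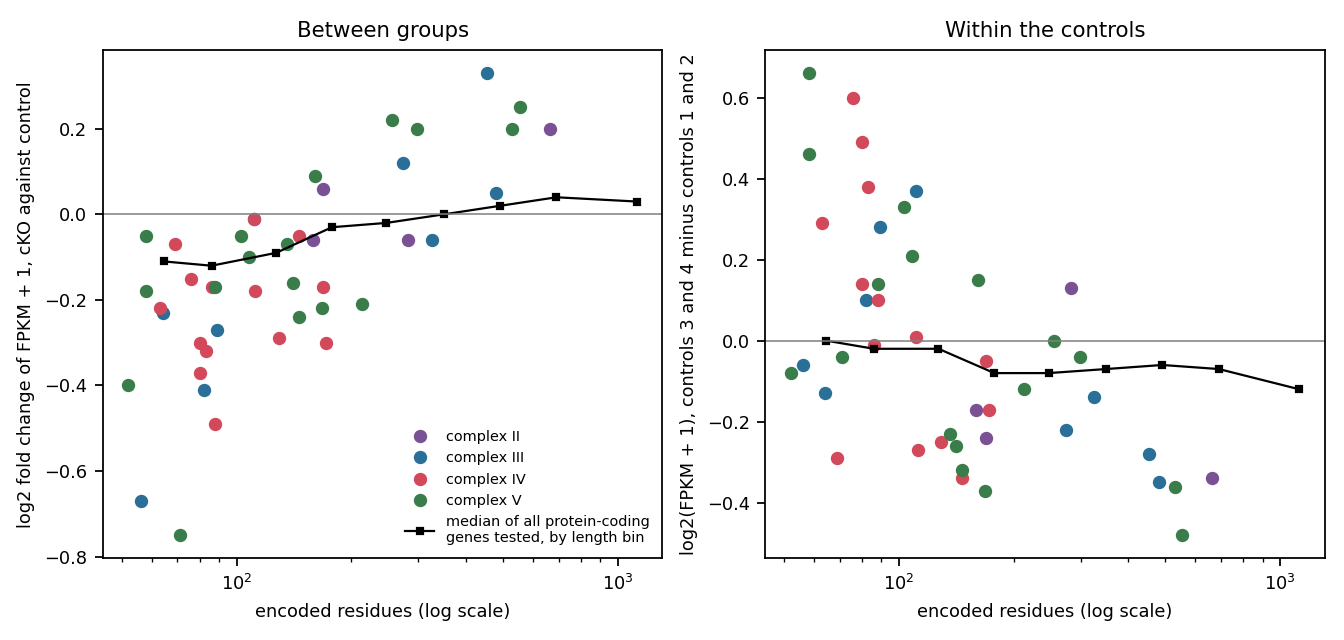
Left, the log2 fold change of each of the 44 members against the number of encoded residues (log scale), coloured by complex; the black squares are medians over all protein-coding genes tested in bins of length. Right, the mean log2(FPKM + 1) of controls 3 and 4 minus that of controls 1 and 2 for the same genes. The left cloud climbs from short to long proteins (rho 0.66) and the right one descends (rho -0.59). Both panels use the same controls, so they are not independent.

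The mitochondrially encoded partners of these complexes lay on the other side of 0. All 6 had log2 fold changes above 0 with a median of 0.51, and limma called 0 of them. Without overlap between groups lay 3 of the 6, beside 9.61% of all genes in that direction, and 5 of 6 had an unadjusted p under 0.05, beside 12.6%. Reads of all mitochondrial protein-coding genes took 2%, 1.96%, 2.49% and 2.4% of all reads in controls 1 to 4. In cKO 1 to 4 they took 3.12%, 2.44%, 2.77% and 3.09%, so the groups overlapped, with cKO 2 below control 3. mt-Cytb, cytochrome b of complex III, lay at 3065, 3061, 3512 and 3781 FPKM in the controls and 4753, 3816, 4219 and 4839.6 FPKM in the cKO libraries. The lowest cKO value, that of cKO 2, was just above control 4 (log2 fold change 0.39 ± 0.14 SE, limma adjusted p = 0.149). For complex IV, mt-Co1 lay at 4734, 4678, 5524 and 5386 FPKM and at 7735, 5327, 6423 and 7053 FPKM, and cKO 2 lay below controls 3 and 4. Its log2 fold change of 0.38 was 0.00 with quantile normalization. mt-Co2 lay at 150.0, 157, 195 and 143 FPKM in the controls and 249, 219, 260.5 and 269.7 FPKM in the cKO libraries. These groups were clearly apart (log2 fold change 0.63 ± 0.12 SE, limma adjusted p = 0.0758). mt-Co3 lay at 91.3, 103, 277 and 75.8 FPKM in the controls and 146, 125, 165 and 151 FPKM in the cKO libraries, with control 3 above all others. For complex V, mt-Atp8 rested on 3 to 36 reads and lay at 0.876, 1.53, 3.73 and 3.33 FPKM in the controls and 6.21, 5.70, 9.01 and 10.2 FPKM in the cKO libraries. It did not overlap between groups (log2 fold change 1.45 ± 0.31 SE, limma adjusted p = 0.0758, in a range of 0.0138, with the GC and length correction, to 0.225 over the alternatives). mt-Atp6 overlaps it on the genome, so their reads may be shared, and lay at 88.2, 96.9, 167 and 35.7 FPKM and at 163, 142, 166 and 205 FPKM.

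Set against their nuclear partners, the mitochondrial transcripts stood higher in the cKO libraries for complexes III and V in 4 of 4 libraries. The mean log2(FPKM + 1) of mt-Cytb minus that of the 9 nuclear complex III genes was 4.92 ± 0.18 in the controls and 5.44 ± 0.13 in the cKO libraries. For mt-Co1 to mt-Co3 and the 14 nuclear genes of complex IV it was 2.72 ± 0.35 and 3.38 ± 0.14. For mt-Atp6 and mt-Atp8 and the 17 nuclear genes of complex V it was -2.38 ± 0.57 and -1.07 ± 0.31 (SD, n = 4 each). The groups did not overlap for complexes III and V, while for complex IV control 3, at 3.24, lay above cKO 2, at 3.19. These are differences on a log scale between libraries, and no p is given for them. They reuse the values of the nuclear and mitochondrial genes above, so they only restate them. The mitochondrial partners differed widely in level, with means over the 8 libraries of 5858 FPKM for mt-Co1 and 3881 FPKM for mt-Cytb. Those of mt-Co2, mt-Co3, mt-Atp6 and mt-Atp8 were 205, 142, 133 and 5.07 FPKM, and the reason was not tested. In the complex V difference, mt-Atp8, on 3 to 36 reads, counts as much as mt-Atp6.

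**Figure D5:**
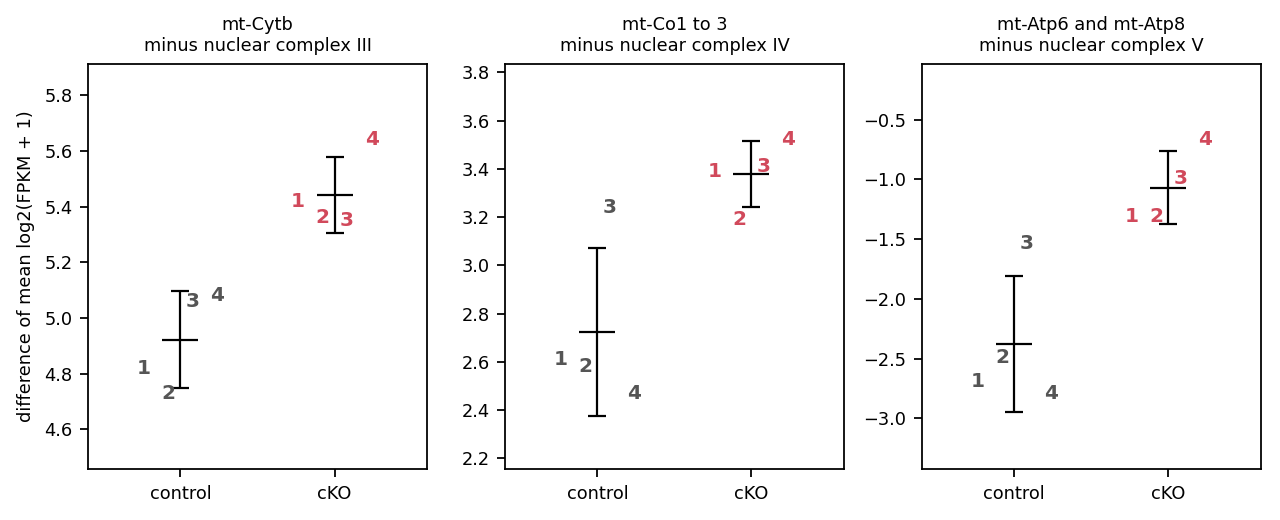
Mean log2(FPKM + 1) of the mitochondrially encoded subunits minus that of the nuclear subunits of the same complex, per library, with the library's number as the point and the mean and SD (n = 4) as bar and whiskers. The 4 cKO libraries lie above the 4 controls for complexes III and V, and control 3 overlaps them for complex IV. Each panel has its own scale, which does not start at 0.

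Genes that build the complexes, and those that regulate them, had 0 calls in every list with limma, and with limma-voom. At an unadjusted p under 0.05, 1 complex II assembly factor was higher, 2 of complex III lower, 2 of complex IV higher and 3 lower, 1 of complex V lower, 1 carrier gene lower, and 4 regulators higher and 1 lower, where 12.6% of all genes were higher and 9.87% lower. Among the 21 complex IV factors tested, these counts were near those shares. Groups without overlap, named below, compare with 9.61% of all genes higher and 5.75% lower. Of the complex II assembly factors, 3 of 4 lay above 0, and of those of complex III, 4 of 6 tested did, although Uqcc3 lay at 14.7 ± 2.58 and 10.5 ± 1.98 FPKM (SD, n = 4 each). The 21 tested assembly factors of complex IV divided into 12 above and 9 below 0, with a median of 0.02. Lrpprc, which stabilises mitochondrial mRNAs including those of complex IV, lay at 21.7, 21.5, 14.7 and 17.3 FPKM in the controls and 29.6, 21.8, 28.4 and 29.3 FPKM in the cKO libraries. All 4 cKO values lay above the controls, cKO 2 by a margin of 21.8 to 21.7 FPKM (log2 fold change 0.52 ± 0.15 SE, limma adjusted p = 0.0987). Sco1, a copper chaperone, lay at 7.60 ± 0.877 and 9.84 ± 1.14 FPKM and was also higher without overlap. Cox14 and Coa6, small proteins needed for the early steps and for copper insertion, lay lower without overlap, at 26.3 ± 0.966 and 20.4 ± 2.08 FPKM and at 29.7 ± 1.39 and 23.3 ± 1.63 FPKM. The third without overlap in that direction was Pet100, at 2.79 ± 0.532 and 1.83 ± 0.298 FPKM, which was named after its values were seen. Among 6 complex V assembly factors 4 lay below 0, and Tmem242 lay lower without overlap at 31.2 ± 0.440 and 27.9 ± 1.27 FPKM. Of 12 genes for cytochrome c and ubiquinone synthesis tested, 7 lay below 0, with Coq2 at 31.3 ± 3.01 and 24.5 ± 1.32 FPKM (limma adjusted p = 0.0850) and Cycs, cytochrome c itself, at 42.0 ± 4.96 and 37.4 ± 3.20 FPKM (SD, n = 4 each). Lower without overlap were 2 of the 12 (16.7%, beside 5.75% of all genes), Coq2 and Coq8b. Coq8b, at 2.23 ± 0.106 and 1.99 ± 0.111 FPKM, was named after its values were seen.

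Of 11 regulators, 8 lay above 0 with a median of 0.12, 3 of them without overlap (9.61% of all genes), and 1 lay lower without overlap (5.75% of all genes). Tfam, which packages and transcribes mitochondrial DNA, lay at 18.3, 19.4, 14.4 and 17.6 FPKM in the controls and 21.9, 21.7, 22.6 and 22.5 FPKM in the cKO libraries without overlap (log2 fold change 0.34 ± 0.09 SE, limma adjusted p = 0.0949). Gabpa, the DNA-binding subunit of the ETS factor NRF2, lay at 18.1, 18.8, 19.3 and 18.7 FPKM and at 21.5, 20.9, 25.3 and 23.5 FPKM, again without overlap (log2 fold change 0.27 ± 0.08 SE, limma adjusted p = 0.103). Gabpa overlaps Atp5j on the other strand, and the sources used here do not say whether counting used strand. The remaining regulator higher without overlap was Gabpb1, at 5.42 ± 0.389 and 6.42 ± 0.610 FPKM (SD, n = 4 each), named after its values were seen. Esrra, a nuclear receptor that activates respiratory genes, went the other way, at 21.5, 22.9, 28.7 and 25.5 FPKM in the controls and 17.4, 12.9, 18.4 and 19.2 FPKM in the cKO libraries (log2 fold change -0.52 ± 0.14 SE, limma adjusted p = 0.0879). Ppargc1a, the coactivator PGC-1alpha, was low, at 2.74 ± 0.731 and 2.62 ± 0.635 FPKM (SD, n = 4 each), and its direction turned without controls 3 and 4. The 38 tested subunit genes of complex I, counted for comparison, had a median of -0.16 with 30 below 0 and 12 lower without overlap (31.6%, beside 5.75% of all genes), and their difference from complexes II to V was not tested.

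The promoters of these genes are known for sites of NRF1 and of ETS factors such as GABPA, and the promoter windows of RefSeq on GRCm38.p6, from 250 bases before to 50 bases after each start, were searched for both on both strands. A window was found for 36 of the 48 symbols. The NRF1 motif (GCGC, any 2 bases, then GCGC) was in 10 of the 36 (27.8%), against 9.61% of 17492 protein-coding genes, and the ETS motif (CCGGAAG) was in 13 (36.1%), against 12.9%. Both motifs were in 4 members and either in 19. The median log2 fold change was -0.16 over the 19 tested members with either motif and -0.22 over the 15 tested with neither. The 250 bases before the start are printed for 3 genes that lay lower without overlap and for Sdha, which did not, with motif matches in capitals and the rest in lower case, read 5′ to 3′ on the minus strand of each chromosome.
Uqcr11 (chr10:80406822-80407071): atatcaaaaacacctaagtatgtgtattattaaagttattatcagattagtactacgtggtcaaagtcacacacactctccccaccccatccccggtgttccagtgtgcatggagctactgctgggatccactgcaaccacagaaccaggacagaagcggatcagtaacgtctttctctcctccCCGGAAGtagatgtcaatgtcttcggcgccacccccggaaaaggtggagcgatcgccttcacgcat
Atp5e (chr2:174464102-174464351): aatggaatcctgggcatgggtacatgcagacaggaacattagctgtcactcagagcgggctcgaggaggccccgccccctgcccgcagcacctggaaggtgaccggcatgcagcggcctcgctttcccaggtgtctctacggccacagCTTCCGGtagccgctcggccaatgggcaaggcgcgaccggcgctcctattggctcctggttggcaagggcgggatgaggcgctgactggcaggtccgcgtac
Atp5k (chr5:108434400-108434649): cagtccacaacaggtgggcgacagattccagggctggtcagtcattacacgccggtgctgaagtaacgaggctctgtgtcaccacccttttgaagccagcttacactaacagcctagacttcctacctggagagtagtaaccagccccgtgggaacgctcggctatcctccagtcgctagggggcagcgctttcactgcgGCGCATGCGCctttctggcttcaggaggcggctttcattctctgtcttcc
Sdha (chr13:74350241-74350490): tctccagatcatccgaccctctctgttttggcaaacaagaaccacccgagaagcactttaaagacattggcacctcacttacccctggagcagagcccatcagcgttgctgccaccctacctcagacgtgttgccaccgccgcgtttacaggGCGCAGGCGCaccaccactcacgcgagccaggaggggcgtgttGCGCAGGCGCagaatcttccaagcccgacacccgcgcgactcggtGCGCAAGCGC
The ETS match of Uqcr11 begins 66 bases before the start and that of Atp5e, on the opposite strand, 102 bases before. Atp5k has an NRF1 match 50 bases before the start and an ETS match from base 13 of the transcript, outside the stretch printed. Sdha has 3 NRF1 matches, 98, 55 and 10 bases before its start. Of the 5 members lower without overlap that have a window, 4 hold either motif, beside 19 of all 36 members with a window. A match is a match of letters only.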

How the data were processed

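RNA of the whole small intestine of 8 embryos (4 controls, 4 labelled cKO) was isolated with TRIzol and made into libraries with a NEBNext Ultra kit, per the labels' protocols. The authors deposited 1 table of FPKM values for 55681 genes; the build GRCm39 and the tools fastp, CASAVA, featureCounts, HISAT2 and DESeq2 1.20.0 are named, without settings, in the submitters' processing notes. Columns were matched to libraries by name, and 3 blank lines of the table were not used. FPKM times gene length, divided by the value of 1 read, was whole within 0.01 for 100% of values above 0 and gave 15663837 to 17806397 reads per library. The authors' FPKM imply totals of 0.969 to 1.09 times these sums, a scaling that the labels do not describe. It was 1, 1, 1.09 and 1.06 in controls 1 to 4 and 0.969, 1.01, 0.985 and 0.983 in cKO 1 to 4. Controls 3 and 4 also held the most genes with a read, 25832 and 25934, against 23883 to 24071 in the other libraries. Intervals and limits on reads cover counting error only.

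limma 3.58.1 in R 4.3.3 was fitted, with an intensity trend, to log2(FPKM + 1) of 14220 genes (those averaging 1 FPKM or more), 2-sided, with Benjamini-Hochberg adjustment over all of them and a threshold of 0.05. Fold changes on this scale understate those of low genes. Exact permutation tests used the 70 assignments of 4 of 8 libraries. Lists are described by counts and medians beside those of all genes. The scripts were tested on simulated data. Coding length and GC content came from GENCODE M21 by gene identifier (GC for 98.4% of tested genes and all members).

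The members, lists, alternatives and rule for named genes were chosen with earlier results of these data known. That rule takes Slmap, the Sdh genes, in each of complexes III to V the highest member and up to 6 of smallest p, the isoform sets, Atp5a1, Atp5b, Atpif1, members below the filter, the mitochondrial partners, and up to 2 genes per direction of smallest p in each other list. Other genes were named after their values were seen. Controls and cKO libraries share the numbers 1 to 4, which no label explains. No libraries were duplicates. Among the 44 members tested, 6 overlap a gene on the same strand and 14 on the other, and 11 pseudogenes carry their names, so some reads cannot be assigned with certainty. Alternatives were the pseudocount, filter, scaling, trend, weights, replicate number, limma-voom, GC and length correction and libraries left out. Scaling by summed reads was added after the data were seen.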

Additional observations from a re-analysis of the deposited data

Results flagged for a closer look

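In groups of 4 libraries, a library was looked for whose gap to its nearest neighbour took up more of the group's range than Dixon's 95% critical value for 4 values. This was done for 150 groups, and 7 such libraries were found, where chance gives about 1 in 20 groups.

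Among the subunit genes, cKO 2 lay apart below the other 3 cKO libraries for 4 genes. It held 72.9 FPKM for Sdha, against 97.4 to 97.6 FPKM in cKO 1, 3 and 4. It held 50.8 FPKM for Sdhc against 56.4 to 57.2 FPKM, 103 FPKM for Uqcrc2 against 130.4 to 136 FPKM, and 97.6 FPKM for Cyc1 against 117 to 121 FPKM. The same library lay below the others at 21.8 FPKM for Lrpprc, against 28.4 to 29.6 FPKM, and at 31.0 FPKM for Tmem70, which helps ATP synthase assemble, against 41.0 to 42.0 FPKM. For the 4 subunit genes it lay within or below the range of the controls. Control 3 lay apart above the other controls for mt-Co3, at 277 FPKM against 75.8 to 103 FPKM.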

How the results depend on the processing

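Of 75 named genes fitted, 53 kept the direction of their log2 fold change under every alternative run and 22 did not. Called subunit genes numbered 0 higher and 0 lower with all libraries, 2 higher and 8 lower with array quality weights, 1 lower with a filter of 5 FPKM, and 2 lower with quantile normalization and with scaling by summed reads. With 1 library left out in turn they numbered 0 to 1 higher and 0 to 5 lower. Members without overlap numbered 0 higher and 8 lower, beside 9.61% and 5.75% of all genes. There were 1 higher and 8 lower after the GC and length correction (4.95% and 2.62% of all genes). These 8 were not all the same genes, with 2, 2 and 4 in complexes III, IV and V against 3, 3 and 2 before it. There were 2 higher and 17 lower without controls 3 and 4 (19.1% and 20.8%), 13 lower with quantile normalization (5.46%) and 15 lower with summed reads (9.11%). Without 1 library there were 0 to 6 higher and 8 to 14 lower, where all genes gave 10.8% to 17.4% higher and 6.67% to 12.3% lower, both highest without cKO 2. Of the other pathway genes, 9 were called higher and 6 lower with weights and 1 higher after the GC and length correction, and 0 to 6 higher and 0 to 2 lower without 1 library. Over the whole table, 0 genes were called higher and 2 lower. These counts were 22 and 23 with a filter of 5 FPKM, 12 and 19 with median-ratio scaling, 14 and 20 with quantile normalization, 5 and 23 with summed reads, 1180 and 1029 with weights, 2 higher after the GC and length correction, 1 higher without controls 3 and 4, and 0 lower with a pseudocount of 0.1 FPKM, with no filter and with limma-voom. Without 1 library they were 0 to 792 higher and 0 to 590 lower, both highest without cKO 2. With the replicate number as a block, 0 members and 0 genes of the table were called. The numbers were not taken to pair the libraries, since same-numbered libraries deviated together with r of 0.069, 0.326, 0.15 and 0.213, and 2 of 4 controls were most like the cKO library of their number. The median of complex III was -0.06, and -0.13 without controls 3 and 4 and with summed reads (-0.11 to 0.01 without 1 library). That of complex IV was -0.20, -0.14 after the GC and length correction, -0.27 with summed reads and -0.27 to -0.17 without 1 library. That of complex V was -0.10, 0.00 without controls 3 and 4, and -0.17 with summed reads. After the GC and length correction the direction turned for Cox6a1 (0.13), Cox8a (0.19), Cox4i1 (0.03), Cyc1 (0.18), Cox7a2l (0.01), Atp5mpl (0.08), Sdhb (0.04), Atp5g2 (0.04), Slmap (-0.03), Sdhaf3 (0.00) and Atpaf1 (-0.07). Without controls 3 and 4 it turned for Uqcrb (0.17), Atp5mpl (0.18), Sdhb (0.01), Uqcrc1 (-0.12), Sdhc (-0.06), Atp5md (0.15), Cox6c (0.15), Atp5j (0.00), Atp5l (0.11) and Ppargc1a (0.19). With weights it turned for Uqcrb (0.08), Atp5mpl (0.01), Sdhb (0.01), Atp5l (0.03) and Ppargc1a (0.14), with quantile normalization for Uqcrc1 (-0.01), mt-Co1 (0.00) and Ppargc1a (0.00), and with summed reads for Uqcrc1 (-0.02) and Sdhc (-0.01). Without 1 library, values that changed sign ranged from -0.12 to 0.03 for Sdhd, -0.09 to 0.01 for Cyc1, -0.04 to 0.04 for Cox7a2l, -0.11 to 0.07 for Uqcrb, -0.14 to 0.04 for Atp5mpl, -0.10 to 0.00 for Sdhb, -0.03 to 0.13 for Uqcrc1, -0.13 to 0.03 for Cox5a, -0.11 to 0.01 for Atp5l and -0.14 to 0.07 for Ppargc1a. The cause of these turns was not tested, and the estimation of the weights stopped before it converged. The 4 tested members under 20 FPKM (Cox4i2, Cox6b2, Cox7a1 and Atp5l) include 3 that rest on 19 to 123 reads a library, which limits their precision, and the others of at least 20 FPKM rest on 204 reads or more.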
